A study of Oryza sativa with 18 samples.

Results

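The spikelet meristem column of a rice chromatin atlas is described here. The table behind it holds 128 columns, each the pooled accessibility of 1 cell state of 1 organ, and the column labelled SM in the panicle is 1 of them. It was set against the 15 other panicle columns and against the 9 columns of other organs that carry the names Procambial_meristem (5 columns: axillary bud, early seedling, seedling, crown root and seminal root), QC (2 columns: crown root and seminal root) and Radicle_meristem (2 columns: early seed and late seed). The plants were Oryza sativa of the genotype Nipponbare, the tissue was fresh, and no treatment or mutant was compared. Nuclei were sorted by fluorescence, 16000 nuclei entered each library, and open chromatin was read by droplet-based single-cell ATAC-seq, an assay whose transposase cuts exposed DNA and tags it with adapters. Each of the 9 organs had 2 libraries, which the authors pooled, so no state has a replicate column. Differences are therefore given as measured, with no p-value, and the spread over the columns compared is the only spread at hand.

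The spikelet is the unit of the grass inflorescence. In rice the inflorescence meristem gives rise to branch meristems, these give rise to spikelet meristems, and a spikelet meristem forms the glumes before it becomes a floral meristem that makes lemma, palea, lodicules, stamens and pistil. A procambial meristem is the strand of dividing cells from which phloem, the sugar-conducting tissue, and xylem, the water-conducting tissue, are formed, and the quiescent centre (QC) is the group of slowly dividing cells that organises the root tip. The table does not spell out its abbreviations; by usage in the field, SM stands for spikelet meristem, PBM and SBM for primary and secondary branch meristem, FM for floral meristem and SAM for shoot apical meristem. Columns with UN in their name carry no cell type name.

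The values are log2 CPM, the base-2 logarithm of counts scaled to a common total in every column, for 128764 regions of 501 bases. Depth per column is not given; a column pooled from few reads takes few distinct values, and their number was 753 in SM, the seventh of the 16 panicle columns, between 162 in Stamen and 2587 in Rachis. In the meristem columns of other organs it lay between 69 in early seedling Procambial_meristem and 547 in early seed Radicle_meristem. All columns had been brought to nearly the same distribution of values before deposit, so a region can be read only as high or low relative to the other regions of its column. Coordinates are those of the authors' files, on a genome build that no source used here names, and no gene names were attached to the regions. Marker genes of the spikelet meristem were for that reason not analysed here, and the label was checked against the profiles of the other columns.

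Across all 128764 regions, the SM profile was closest to that of Rachis, the panicle axis, and to that of PBM. The Pearson correlation of the log2 values was 0.954 with Rachis, 0.953 with PBM and 0.941 with SBM. FM, the state that follows the spikelet meristem in development, came after these with 0.906. Regions are not replicates and all panicle columns come from the same 2 libraries, so these correlations are descriptions. Distinct values numbered 2587 in Rachis, 1370 in PBM, 1032 in SBM and 478 in FM, and whether depth bears on the order was not tested. The order of the first 2 changed with the scale: on log2(CPM + 1) PBM was first with 0.965 and Rachis had 0.963, and by Spearman correlation PBM was first with 0.963. SM was itself the closest panicle column of SBM (0.941) and of Rudimentary_glume (0.922), the rudimentary glumes being the outermost scales of the rice spikelet.

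Outside the panicle the columns most like SM were not those called meristem. Axillary bud Vascular_cell (0.936) and axillary bud Phloem_precursor (0.935) stood above 12 of the 15 panicle columns. Among the columns named as meristems, axillary bud Procambial_meristem had 0.896, seedling Procambial_meristem 0.884 and early seedling Procambial_meristem 0.828. The root and seed meristems lay lower, from 0.763 in early seed Radicle_meristem and 0.758 in seminal root QC down to 0.696 in late seed Radicle_meristem. Early seedling SAM, the vegetative shoot tip, had 0.830, and the embryonic Shoot_meristem columns had 0.715 in early seed and 0.605 in late seed. The median over the columns of an organ was 0.922 in panicle, 0.885 in axillary bud, 0.807 in seedling, 0.788 in early seedling, 0.699 in early seed, 0.658 in seminal root, 0.647 in crown root, 0.621 in late seed and 0.615 in leaf. Panicle, axillary bud, seedling and early seedling thus stood above roots, seeds and leaf.

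**Figure D1:**
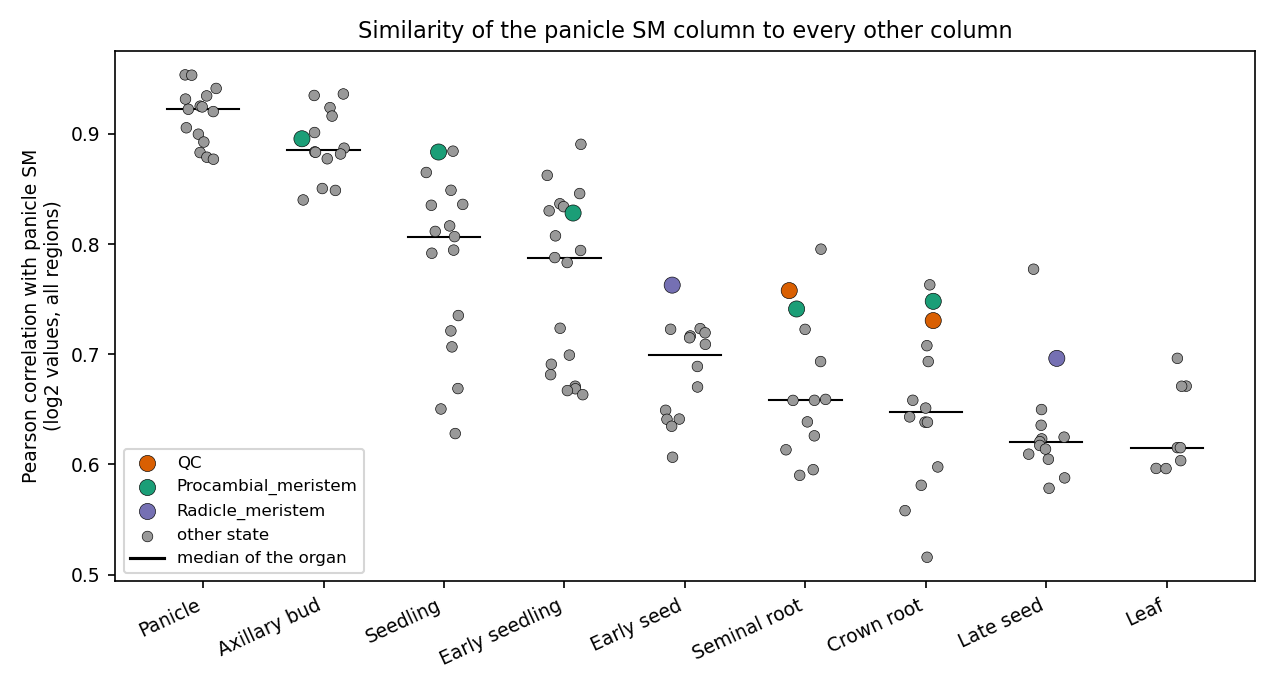
Pearson correlation of the panicle SM column with each of the other 127 columns (vertical axis, log2 values over all regions), by organ (horizontal axis); each point is 1 column, the coloured points are the meristem columns and black lines are organ medians. The panicle and axillary bud columns lie highest, and the shoot Procambial_meristem columns lie above the QC and Radicle_meristem columns.

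Within the panicle, SM was a column of moderate contrast. A region was called when it differed by more than 1 on the log2 scale, a 2-fold difference, among regions that reached 1 CPM in at least 1 of the columns compared. Against the mean of the other panicle columns, 2754 of 127093 regions (2.17%) were higher in SM and 3799 (2.99%) were lower. The same count for the other panicle columns, each against the mean of the rest, ran from 1005 higher regions in Bract to 8150 in SBM, and from 1555 lower regions in Rachis to 8060 in Stamen. SM was the eleventh of 16 by higher regions and the tenth by lower ones. Of the regions called, 42.0% were higher in SM, and this split depended on the treatment of low values: it was 60.9% on log2(CPM + 1), 86.6% on log2(CPM + 5) and 55.0% with a minimum CPM of 5. The regions lower in SM were weakly accessible ones, with a median of 0.660 CPM in SM and 1.89 CPM for the mean of the other panicle columns. Those higher in SM had a median of 6.87 CPM in SM and 3.42 CPM for the mean of the other panicle columns.

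**Figure D2:**
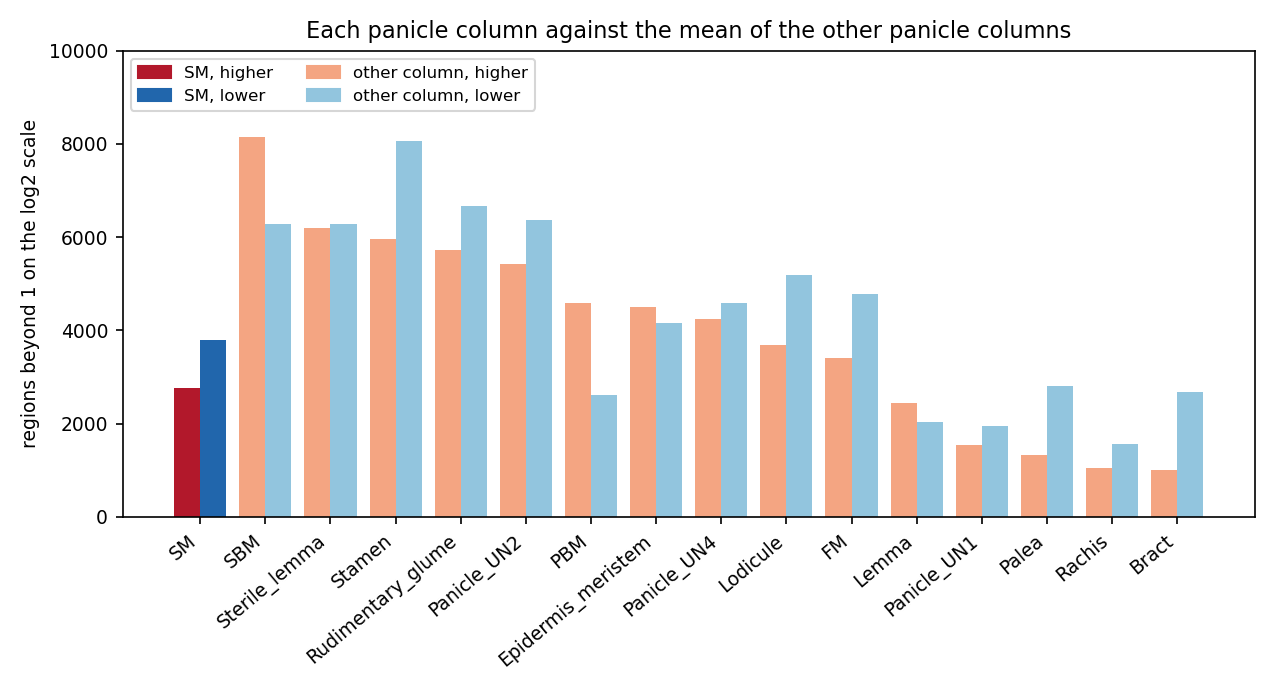
Number of regions beyond 1 on the log2 scale for each panicle column against the mean of the other 15 (vertical axis), with higher regions on the left bar and lower regions on the right bar of each column. SM, drawn in dark colours at the left, has 2754 higher and 3799 lower regions, fewer of each than SBM.

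Few regions were open in SM alone. SM was the highest panicle column in 5022 regions (3.9%), but its lead over the next column exceeded 0.5 on the log2 scale in 105 (0.0815%) and 1 in 3 (0.00233%). Such leads above 1 were as few in Palea (3), Rachis (2), Bract (2) and Panicle_UN1 (1), and reached 35 in FM, 208 in PBM and 1064 in SBM, so their rarity was not particular to SM. SM was the lowest panicle column in 5352 regions (4.16%), by more than 0.5 in 639 (0.496%) and by more than 1 in 98 (0.0761%). Among the 3 regions with a lead above 1, that on chromosome 2 from 4994561 to 4995061 had 4.09 CPM in SM, against 0.384 to 1.98 CPM in the other panicle columns with a median of 0.985. It was more open elsewhere, with 25.7 CPM in the vascular bundle of the early seed scutellum, and SM ranked 45 of all 128 columns. The other 2 lie on chromosome 4 and are described below.

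Among the 4 panicle columns named for successive meristems, SM was mostly intermediate, and so was PBM. In the 38511 regions where PBM, SBM, SM and FM spanned more than 1 on the log2 scale, SM was the highest of the 4 in 12.5%, the lowest in 17.3% and between the others in 70.2%. FM was an extreme far more often, the highest in 38.4% and the lowest in 39.7%. SBM was the highest in 29.9% and the lowest in 29.1%, and PBM the highest in 19.2% and the lowest in 13.9%. PBM lay between the others in 66.9%, so an intermediate place was not particular to SM. Without the limit on the span, PBM was between the others in 61.4% of regions and SM in 61.2%. Taken pair by pair, SM had 2282 higher (1.92%) and 3956 lower regions (3.33%) than PBM, and 3238 higher (2.71%) and 5454 lower regions (4.57%) than SBM. It had 8454 higher (7.03%) and 8298 lower regions (6.9%) than FM, and 11056 higher (9.16%) and 10005 lower regions (8.29%) than Stamen, the male organ. SM thus differed from PBM in fewer regions than from FM on this count. The columns also differ in distinct values, 1370 in PBM, 753 in SM, 478 in FM and 162 in Stamen. Whether depth bears on these counts was not tested.

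The regions that were higher in SM than in the panicle mean were shared mainly with the branch meristems and the rudimentary glume. Over these 2754 regions the median was 6.87 CPM in SM, 8.26 CPM in SBM, 5.36 CPM in PBM, 5.27 CPM in Rudimentary_glume, 3.81 CPM in Panicle_UN4 and 3.42 CPM in Rachis. The lowest medians were 1.77 CPM in Epidermis_meristem and 1.78 CPM in Panicle_UN2. SBM stood above SM in 52.8% of them, Rudimentary_glume in 24.5%, PBM in 22.1% and Panicle_UN4 in 10.9%, and each of the other panicle columns in at most 3.09%. The members were chosen from these columns, so the values describe the set and test nothing.

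Accessibility in the other 8 organs did not enter that choice. There, each of the 112 columns was set against the mean of the other columns of its own organ, and the median difference over the SM-higher regions was taken. These regions were high in the columns that form vascular tissue: the median was 1.35 in early seedling Developing_phloem, 1.35 in seedling Developing_phloem, 1.31 in seedling Procambial_meristem and 1.12 in early seedling Phloem_precursor, all on the log2 scale. Over all regions tested the corresponding medians were 0.04, 0.03, 0.07 and 0.06. The order was reversed for the surface of the shoot: the lowest of the 112 medians were -1.11 in axillary bud Stomatal_precursor and -1.09 in axillary bud Epidermis. Of the 39 columns with a vascular name, 33 had a median above 0, against 1 of 12 with an epidermal name, 3 of 9 with another meristem name and 9 of 52 with other names. For regions higher in PBM, SBM, Rudimentary_glume and Panicle_UN4 the vascular count was 36, 35, 35 and 37, so it was not particular to SM. It also depended on the set. Where SM was the highest panicle column (5022 regions), 26 vascular and 6 epidermal columns lay above 0. For the 198 regions that the authors list for SM, these were 23 and 4.

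**Figure D3:**
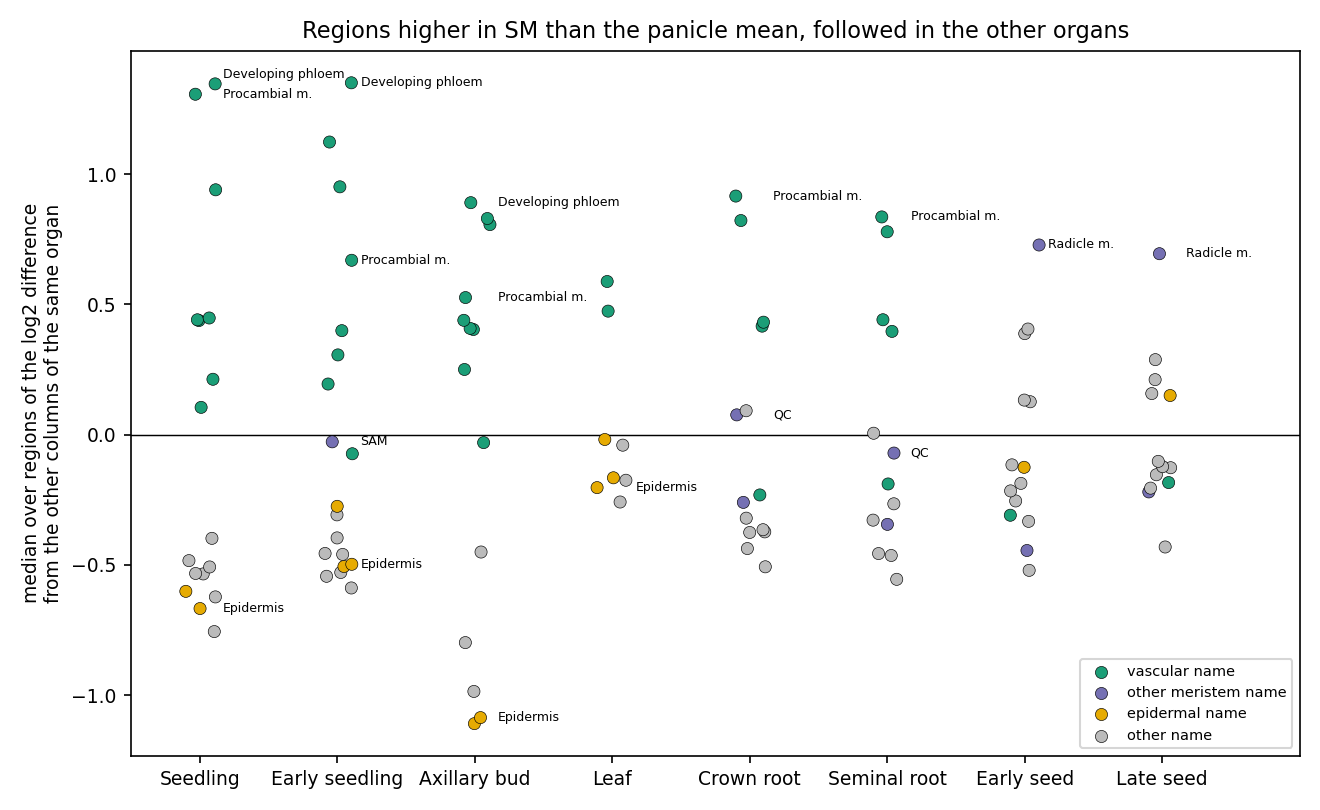
The 2754 regions higher in SM than in the panicle mean, followed in the columns of the 8 other organs; the vertical axis is the median over these regions of the log2 difference of a column from the mean of the other columns of its organ, and each point is 1 column. Columns with vascular names (green) lie highest in seedling, early seedling, bud, leaf and both roots, and columns with epidermal names (yellow) lie lowest in the bud.

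The meristem columns of other organs did not behave as 1 class. The median difference of the SM-higher regions was 1.31 in seedling, 0.92 in crown root, 0.84 in seminal root, 0.67 in early seedling and 0.53 in axillary bud Procambial_meristem, a mean of 0.85 ± 0.30 (SD, n = 5 columns). It was 0.73 in early seed and 0.69 in late seed Radicle_meristem, the growing tip of the embryonic root. In the QC it was 0.08 in crown root and -0.07 in seminal root, and in early seedling SAM it was -0.03. The groups did not overlap: the lowest Procambial_meristem or Radicle_meristem column lay above the highest of QC and SAM. The remaining meristem names lay below 0 for the SM-higher regions, with -0.22 in late seed and -0.45 in early seed Shoot_meristem, and -0.26 in crown root and -0.35 in seminal root Cortex_meristem. Other sets drawn from the SM column gave another order. For the 198 regions that the authors list for SM, the mean was 0.66 over Procambial_meristem, 0.49 over QC and 0.37 over Radicle_meristem columns, and SAM had 0.26. For the 5022 regions in which SM was the highest panicle column, these values were 0.18, 0.19, 0.04 and 0.04. In both of these sets the QC mean stood above the Radicle_meristem mean, unlike in the SM-higher regions.

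The share of SM-higher regions that were themselves called was taken for each column as well. In seedling Procambial_meristem 60.8% of the SM-higher regions were higher than in the rest of the seedling, where 10.3% of all regions were. The shares were 47.1% against 7.3% of all regions in crown root Procambial_meristem, 44.5% against 6.56% in seminal root Procambial_meristem, 37.7% against 11.9% in early seedling Procambial_meristem and 23.5% against 3.38% in axillary bud Procambial_meristem. For Radicle_meristem they were 40.8% against 5.64% in early seed and 39.8% against 8.47% in late seed. The QC columns were nearer to their background, with 17.2% against 10.3% in crown root and 14.6% against 9.16% in seminal root, and SAM had 9.75% against 6.86%. The phloem precursors of the axillary bud stood out most by ratio: 37.8% of the SM-higher regions were called there, against 2.7% of all regions, and they made up 30.9% of the regions called in that column. In axillary bud Epidermis 0.479% of the SM-higher regions were called higher, against 4.96% of all, and 55.0% were called lower, against 5.3% of all.

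Counted over the 9 meristem columns together, 509 SM-higher regions (18.5%) were called higher in at least 6, against 0.983% of all regions, and 11 (0.399%) were called in all 9, against 18 regions or 0.0142% of all. The region with the largest SM difference among these 11 lies on chromosome 5 from 657412 to 657912. It had 14.3 CPM in SM, against 0.314 to 19.6 CPM in the other panicle columns with a median of 2.41 CPM; SBM was higher than SM and Epidermis_meristem was the lowest. The authors name it for SM and 14 other states, mostly of phloem and procambium. On chromosome 2, the region from 27437491 to 27437991 had 25.8 CPM in SM, against a median of 5.12 CPM and a highest value of 34.2 CPM, in SBM, in the other panicle columns. A region on chromosome 11 from 26516123 to 26516623 had 18.2 CPM in SM, more than any other panicle column (1.95 to 17.4 CPM, median 3.89 CPM), and 8.04 to 20.8 CPM in the 9 meristem columns. The panicle ranges thus enclosed SM in the first 2 regions and not in the third.

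The regions lower in SM than in the panicle mean gave the reverse picture in smaller steps. Their median difference was above 0 in all 12 columns with an epidermal name, between 0.15 and 0.42, and in 3 of the 39 with a vascular name. The highest value was 0.42 in axillary bud Epidermis, and seedling Procambial_meristem had -0.46, the lowest of the 112 columns. The mean over the 5 Procambial_meristem columns was -0.29, that of the 2 Radicle_meristem columns -0.30 and that of the 2 QC columns -0.03.

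The same summary was made for every panicle column, each from the regions higher in it than in the mean of the rest. These sets share the panicle columns as their comparison, so they are given side by side. The mean over the 5 Procambial_meristem columns was 0.85 for SM, 0.78 for PBM, 0.53 for SBM, 0.37 for Rudimentary_glume and 0.33 for Panicle_UN4, and it was below 0 for each of the other 11 panicle columns. The mean over Developing_phloem columns was 1.20 for SM, 0.41 for PBM and 1.16 for SBM. For the columns that form xylem it was 0.68 for SM, 1.12 for PBM and 0.41 for SBM. SM thus had high values on both sides of vascular differentiation, where PBM was high mainly on the xylem side and SBM on the phloem side. Rudimentary_glume (0.64 for Developing_phloem and 0.36 for the xylem-forming columns) and Panicle_UN4 (0.38 and 0.35) also lay above 0 on both sides. Values on both sides were therefore not particular to SM. The sets differ in size, with 2754 regions for SM, 4587 for PBM and 8150 for SBM, so close means do not rank the columns. FM showed no such pattern, with -0.12 for Procambial_meristem, -0.03 for Developing_phloem and -0.07 for the xylem-forming columns, and Epidermis_meristem had its highest mean, 1.07, in Epidermis. The name SM is kept here as the label of the column, which these profiles neither establish nor replace.

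**Figure D4:**
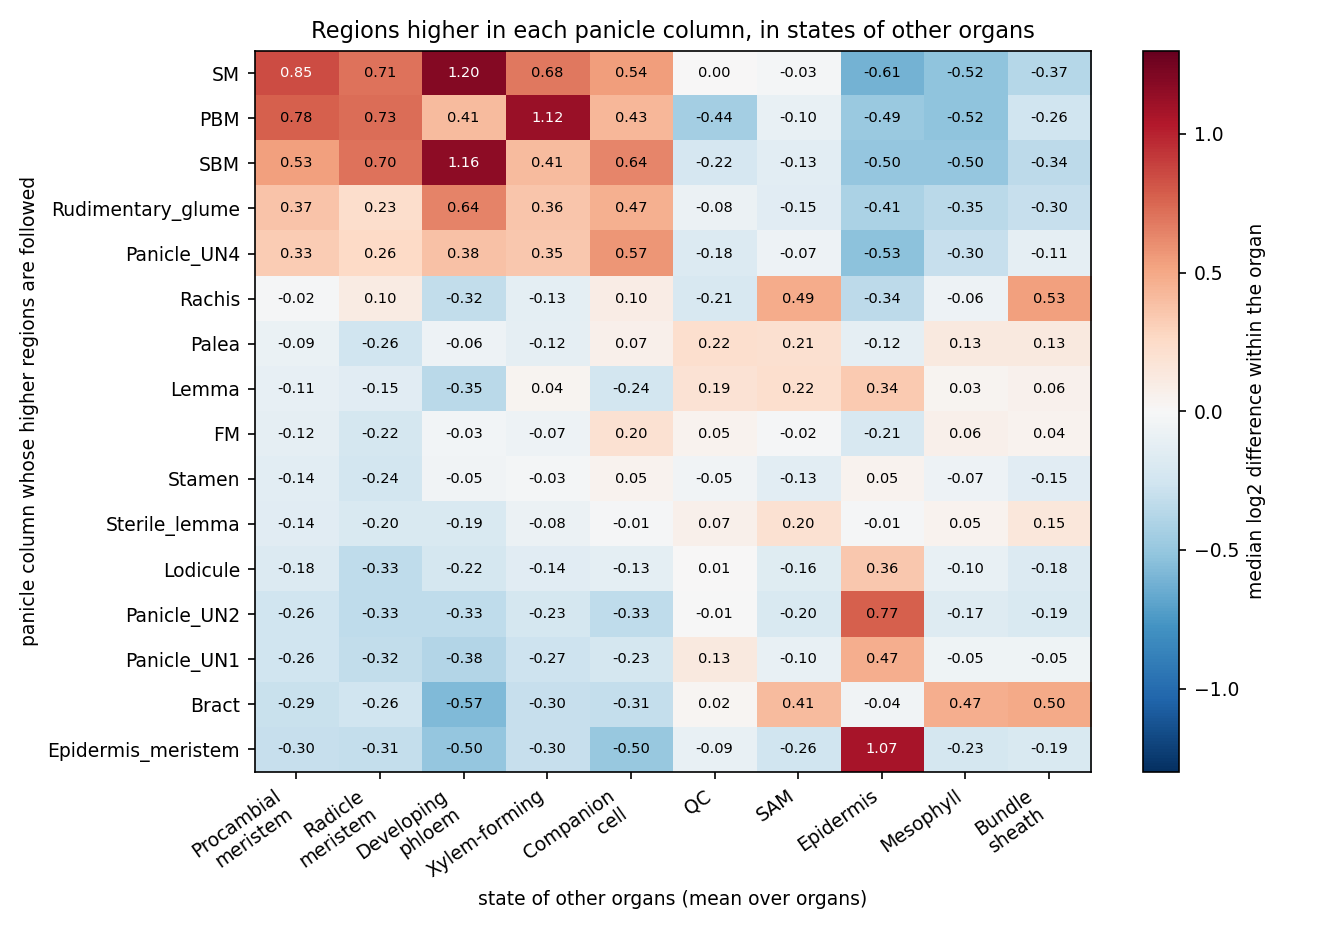
Median log2 difference within other organs, averaged over organs (colour and printed number), of the regions higher in each panicle column (rows) for 10 kinds of state (columns). SM, PBM and SBM are the 3 rows with values above 0.5 for Procambial_meristem and Radicle_meristem.

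Direct contrasts with the branch meristems separated SM from both. The 3956 regions lower in SM than in PBM had their highest medians in Developing_xylem, 0.71 in axillary bud and 0.67 in seedling. The 5454 regions lower in SM than in SBM had theirs in axillary bud Developing_phloem (1.05) and axillary bud Companion_cell (0.98), companion cells being the cells that load phloem. In the opposite direction the highest median was much smaller for SBM and only slightly smaller for PBM. The 2282 regions higher in SM than in PBM had their highest medians in early seed Lateral_endosperm (0.67), early seed Dorsal_endosperm (0.53) and seedling Procambial_meristem (0.42). The 3238 regions higher in SM than in SBM had theirs in axillary bud Bundle_sheath (0.33), axillary bud Mesophyll (0.31) and early seedling SAM (0.27).

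Against the mean of the meristem columns of other organs more regions were called than against the panicle mean. Relative to the meristem mean, 8490 of 128644 regions (6.6%) were higher in SM and 12521 (9.73%) were lower. Against the mean of the 5 Procambial_meristem columns, 7526 were higher (5.89%) and 11507 lower (9.01%). The shoot columns of that name were nearest, with 5784 higher (4.55%) and 8010 lower regions (6.3%) in SM. The 2 root Procambial_meristem columns gave 19281 higher (15.6%) and 21013 lower (17%), the 2 QC columns 18247 higher (14.6%) and 19497 lower (15.6%), and the 2 Radicle_meristem columns 19695 higher (15.6%) and 20000 lower (15.9%). Single columns ran from axillary bud Procambial_meristem, with 8435 higher (6.95%) and 10167 lower regions (8.37%) in SM, to late seed Radicle_meristem with 24035 (19.3%) and 23593 (18.9%). Axillary bud Procambial_meristem, and seedling Procambial_meristem with 10122 higher (8.33%) and 9874 lower regions (8.13%), thus lay within the range of single panicle columns, whose highest counts were those of Stamen and Panicle_UN2. The organs also differ in these contrasts, and organ and state cannot be told apart in them. SM was above all 9 columns in 9744 regions (7.57%), by more than 0.5 in 1120 (0.87%) and by more than 1 in 151 (0.117%). It was below all 9 in 8045 regions (6.25%), by more than 0.5 in 2457 (1.91%) and by more than 1 in 756 (0.587%).

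Both contrasts together were met by few regions. Of 127027 regions tested in both, 879 were higher in SM than the panicle mean and than the meristem mean, 2104 were lower than both, 65 were higher than the panicle mean and lower than the meristem mean, and 149 the reverse. Against the panicle mean alone 1810 were called higher and 1537 lower, and against the meristem mean alone 7461 higher and 9496 lower. Both contrasts use the SM column, so agreement in direction is in part built in. SM exceeded every one of the 24 columns in 1198 regions (0.93%), by more than 0.5 in 18 (0.014%) and by more than 1 in 1 region (0.000777%). It lay below every one of them in 1466 regions (1.14%), by more than 0.5 in 248 (0.193%) and by more than 1 in 38 (0.0295%). SM was the highest of all 128 columns in 247 regions (0.192%) and the lowest in 307 (0.238%), ties not counted.

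The 1 region with a lead above 1 over both sets lies on chromosome 4 from 24200519 to 24201019. It had 15.4 CPM in SM, against 1.73 CPM in Sterile_lemma to 7.46 CPM in Bract in the other panicle columns, with a median of 3.49 CPM, and 0.304 to 4.78 CPM in the 9 meristem columns, with a median of 1.24 CPM. The choice of the region placed SM above both ranges. SM was also the highest of all 128 columns, and the region is not in the authors' list of states. A second region of chromosome 4, from 8615745 to 8616245, had 14.8 CPM in SM. The other panicle columns had 3.76 to 7.34 CPM there and the meristem columns 2.43 to 9.45 CPM. It was more open elsewhere, with 31.8 CPM in seminal root Seminal_root_UN1, and SM ranked 3 of all 128 columns. The neighbour of this region, from 8615001 to 8615501, had 5.31 CPM in SM. The other panicle columns had 0.515 to 3.04 CPM there, but seedling Procambial_meristem had 6.39 CPM. SM ranked 11 of all 128 columns in the neighbour, where crown root Crown_root_UN2 was the highest.

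Of the 10 regions with the widest lead over both sets, 6 were highest in SM among all 128 columns. The strongest of them, on chromosome 1 from 20213550 to 20214050, had 30.2 CPM in SM, against 10.8 to 17.1 CPM in the other panicle columns and 5.01 to 13.8 CPM in the meristem columns. The next highest of all columns there was axillary bud Phloem_precursor with 18.2 CPM. A region on chromosome 4 from 34417687 to 34418187 had 23.7 CPM in SM, against 2.30 to 12.7 CPM in the other panicle columns and 1.75 to 14.8 CPM in the meristem columns, and axillary bud Phloem_precursor was again next with 16.9 CPM. The choice itself placed SM above all 24 columns, and in both examples the nearest column outside them was a vascular one. Other regions of the 10 differed in this. Early seed Lateral_endosperm was the highest other column on chromosomes 12 (22.0 CPM), 11 (12.9 CPM) and 6 (9.27 CPM). On chromosome 5 it was crown root Developing_protoxylem (15.1 CPM) in 1 region and seedling Developing_xylem (12.2 CPM) in another.

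**Figure D5:**
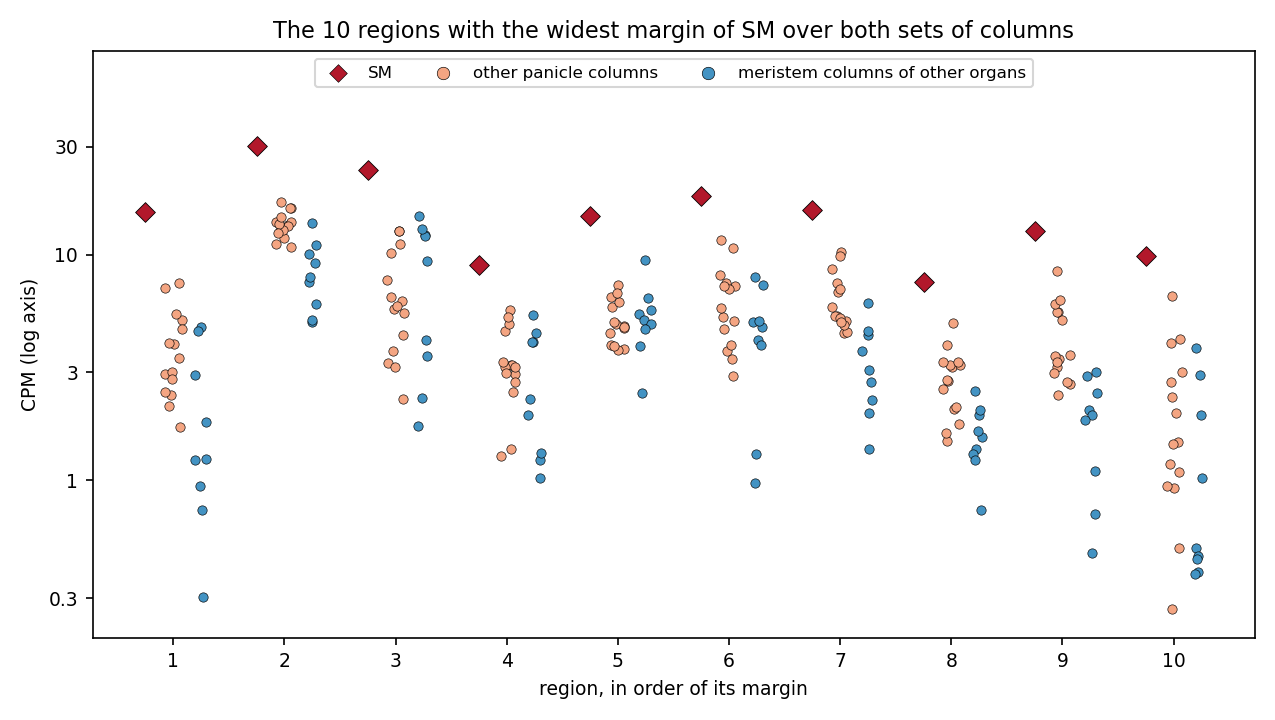
CPM (log axis) in SM (diamonds), in the 15 other panicle columns (orange) and in the 9 meristem columns of other organs (blue) for the 10 regions with the widest lead of SM over both sets, ordered by that lead. By the choice of the regions, SM is above every point in each of the 10, with 7.53 to 30.2 CPM.

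The regions with the widest lead over the meristem columns were in part regions open across the panicle. In 6 of these 10, some other panicle column was above SM. That is the usual case, as SM was the highest panicle column in only 3.9% of all regions. In all 10 the highest column other than SM was a panicle column, and the share of all regions with this trait was not computed. On chromosome 3 from 31055296 to 31055796, SM had 35.5 CPM, the other panicle columns 16.5 to 40.7 CPM and the meristem columns 1.31 to 8.37 CPM. On chromosome 4 from 30185726 to 30186226, SM had 9.47 CPM, FM 32.0 CPM and the meristem columns 0.344 to 2.48 CPM. The panicle and the meristem columns did not overlap in either region, both chosen for a wide lead of SM over the meristem columns. The gap therefore describes these regions and tests nothing. In 4 of the 10 SM was the highest of all 128 columns. One of these 4 is the only region the authors name for SM alone; it lies on chromosome 2 from 11509209 to 11509709, with 12.7 CPM in SM, against 2.39 to 8.44 CPM in the other panicle columns and 0.475 to 3.03 CPM in the meristem columns.

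The 10 regions with the widest deficit of SM against the meristem columns were mostly low in other panicle columns too, but not in all of them. On chromosome 4 from 19477364 to 19477864, SM had 1.60 CPM, the other panicle columns 1.61 to 4.20 CPM and the meristem columns 5.36 to 14.1 CPM. On chromosome 8 from 19012317 to 19012817, SM had 2.71 CPM, the other panicle columns 1.62 to 5.20 CPM and the meristem columns 8.14 to 35.2 CPM. On chromosome 4 from 19981732 to 19982232, SM had 1.88 CPM, the lowest of all 128 columns, against 2.07 CPM in Sterile_lemma to 14.6 CPM in FM in the other panicle columns and 5.95 to 25.1 CPM in the meristem columns. All 10 such regions are marked as broadly accessible in the authors' list, a mark that 60.1% of all regions carry. The choice also required at least 5 CPM in each of the 9 meristem columns, so the mark is not a result about SM. Within the panicle, deficits were ranked only among regions where every other panicle column had at least 5 CPM. The widest of these deficits was on chromosome 4 from 24825893 to 24826393. SM had 3.17 CPM there, and the other panicle columns 5.86 to 10.2 CPM.

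The authors' list of 120048 regions names 198 as specific for SM, the shortest list of the 16 panicle names that the list holds, which include IM and lack Panicle_UN4; Panicle_UN2 had the longest with 1019. No source used here gives the rule behind the list. A region on it was named for a median of 10 states, between 1 and 17, and 12 of the 198 were named for panicle states only. The most frequent partner was axillary bud Phloem_precursor, with 84 regions (42.4% of the SM list and 23.4% of its own), followed by SBM with 80 (40.4% and 13.6%), axillary bud Developing_phloem with 69 (34.8% and 7.36%) and Rudimentary_glume with 64 (32.3% and 18.6%). IM, a panicle name that has no column in the table, shared 58 (29.3% and 12.1%), and PBM shared 54 (27.3% and 12.7%). SM had 5.96 to 26.3 CPM in the 198 regions, with a median of 9.47 CPM. It was the highest panicle column in 46 of them, SBM in 58 and Rudimentary_glume in 23. Of the 198, 81 (40.9%) were more than 1 above the panicle mean on the log2 scale and 178 (89.9%) were more than 1 above the meristem mean. The list and the table come from 1 set of nuclei, and these shares are descriptions.

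Of the SM-higher regions, 48.1% had another SM-higher region within 10 kb, against 15.7% of all tested regions. Of the SM-lower regions, 38.0% had another SM-lower one that near, against 21.4% of all tested regions. Over all 16 panicle columns, which differ in their numbers of called regions, the share ran from 24.8% in Palea to 65.8% in SBM for higher regions and from 16.3% in Panicle_UN1 to 57.8% in SBM for lower ones. The longest run of SM-higher regions, on chromosome 7 from 23849045 to 23881282, held 17 called among 25 tested regions in 32238 bases. Its median was 18.3 CPM in SM, and PBM was the highest other panicle column. On chromosome 1 from 40929273 to 40934636, 6 of 6 tested regions were called, with a median of 10.4 CPM in SM. There the geometric mean was 9.81 CPM in SM and 19.3 CPM in SBM, the highest panicle column. Per chromosome, 1.82% to 2.43% of tested regions were higher in SM and 2.40% to 4.03% were lower. The lower share was highest on chromosomes 11 (4.03%) and 12 (3.94%).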

How the data were processed

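The 18 libraries were single-cell ATAC-seq of 9 organs, 2 per organ, grouped by the titles in the labels. The submitters' processing notes name BWA and MACS2 without version or role; no source used here gives the genome build, the handling of transposase offsets, doublet removal or how states were named. The authors deposited log2 values (log2 CPM, from the name of the table), 1 column per cell state with both libraries pooled, and a list of regions with the states named for each. Counts per column were not given, so no counting interval was computed and precision is limited to the spread between columns.

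CPM was taken as 2 raised to the deposited log2 value. Differences of SM from the mean log2 value of the reference columns were called beyond 1, with CPM of at least 1 in 1 or more columns compared. No test was run, as each state has 1 column. The counting script was tested on simulated data. The design foresaw CPM and the table held log2 values, which were used as deposited. Named regions were the 10 with the widest lead or deficit of SM against the panicle columns, the meristem columns, and both together, with CPM of at least 5 in SM for leads and in every column compared with it for deficits; the examples shared by meristem columns, the longest runs, the region listed for SM alone and the third region with a lead above 1 were chosen after their values were seen. The column of interest, the lists and the name groups (vascular, epidermal, other meristem, other, sorted from the state names) were chosen with earlier results of these data known. Guard_cell, Guard_mother_cell, Stomatal_precursor and Bulliform were counted as epidermal names and Pericycle as a vascular one. Atrichoblast was counted under other names. Gene lists, marker genes and motifs foreseen in the design were not analysed here, because no annotation or genome of the files' build was used. Alternatives were other pseudocounts, filters, medians, reference sets and leaving out each column. Python 3.11.15, pandas 2.3.3, NumPy 2.4.6 and matplotlib 3.10.9 were used.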

Additional observations from a re-analysis of the deposited data

How the results depend on the processing

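No paired analysis was possible because each column pools the 2 libraries of an organ and carries no replicate number; for the same reason no library could be left out. Leaving out each column of the reference in turn gave 2494 to 3328 regions higher and 3516 to 4233 lower in SM than the panicle mean, and 7921 to 9885 higher and 11716 to 13739 lower than the meristem mean. It gave 0.82 to 0.86 for Procambial_meristem, -0.02 to 0.02 for QC and 0.66 to 0.74 for Radicle_meristem as the median difference of the SM-higher regions, the QC mean being 0.00221 as reported. The QC mean lay near 0 and changed sign without PBM, SBM, Rachis or Panicle_UN4, among other alternatives, so it has no direction. The Procambial_meristem and Radicle_meristem means kept their sign under the alternatives. So did the 1170 values of named regions, but their choice fixed this, as SM lay above or below every column compared. Of the named values 1114 moved by less than the spread between columns and 56 moved by more, all with a pseudocount of 1 or 5.

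The counts depended on low values. With log2(CPM + 1), 1075 regions were higher and 691 lower than the panicle mean, and 3791 higher and 5391 lower than the meristem mean. With log2(CPM + 5) these were 149 and 23, and 751 and 568, of which 56.9% were higher in SM. A minimum CPM of 5 left 1606 regions lower than the panicle mean. The lead over all 24 columns held in 1 region at a margin of 1, in 18 at 0.5 and in 1198 at 0. The closest column was Rachis (0.954), PBM on log2(CPM + 1) (0.965) and PBM by Spearman correlation (0.963). The cause of these shifts was not tested.

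Some alternatives were chosen after seeing the data. Without PBM, SBM, Rudimentary_glume and Panicle_UN4, 4699 regions were higher in SM than the panicle mean. The mean over Radicle_meristem columns was 1.04 with a minimum CPM of 5 in any column and 1.04 with CPM of at least 5 in SM. Calling beyond 2 gave 1.60 for Procambial_meristem and 1.78 for Radicle_meristem. Gene windows and motif shares were not run.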

Other observations

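Regions that were lower in SM also formed runs. On chromosome 12 from 25464852 to 25480309, 9 of 15 tested regions were lower in SM than the panicle mean, and Panicle_UN2 was the highest panicle column. On chromosome 10 from 17546032 to 17579450, 9 of 29 tested regions were lower, with a median of 1.88 CPM in SM; Epidermis_meristem was the highest panicle column and early seed Nucellar_epidermis the highest of all columns.

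Endosperm states appeared beside the vascular ones. The SM-higher regions had a median difference of 0.39 in early seed Lateral_endosperm, where 31.3% of them were called higher against 12.7% of the regions tested in both, and 0.29 in the late seed dorsal and lateral endosperm. The scutellar vascular bundle of the seed was an exception among vascular names, with -0.31 in early seed and -0.18 in late seed.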
